A study of Mus musculus with 9 samples.

Results

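Sphingolipid enzymes were followed in RAW264.7, a line of mouse cells with macrophage character, through 10 genes that cover the route from serine to ceramide and the first steps away from it. The genes were *Sptlc1*, *Sptlc2*, *Kdsr*, *Cers2*, *Cers5*, *Cers6*, *Degs1*, *Ugcg*, *Sgms1* and *Sphk1*. They were chosen by name for their place in the pathway, with earlier results of these data known, and are 10 of the 54432 genes in the deposited table. RNAseq was measured in 3 groups of 3 libraries. Control cells were untreated, and the other two groups received lipid emulsion particles at 1 mM for 6 hours, either VLDL-sized (VLDLsep) or of the size of chylomicrons (CHYLsep, here CHYL-sized). That dose is the one in the labels and methods, whereas a figure legend of the study gives a lower one for CHYL-sized particles. Both particles were made of sunflower oil with sodium caseinate as emulsifier, all cells were of passages 13 to 15, and each library was a pool of the samples of a condition from 1 experiment. The controls received no particle, so the lipid and the emulsifier cannot be told apart in any comparison with control. RAW264.7 is a single transformed line, so the p-values below measure the spread between pools of that line.

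Sphingolipids are membrane lipids built on a sphingoid base, and ceramide stands at the centre of their metabolism. Serine palmitoyltransferase joins serine to palmitoyl-CoA in the endoplasmic reticulum, the product is reduced and acylated by a ceramide synthase, and a desaturase then turns dihydroceramide into ceramide. Ceramide is passed on to sphingomyelin or to glucosylceramide, or is split to sphingosine, which sphingosine kinases turn into the signalling lipid sphingosine 1-phosphate. In macrophages these lipids are known for their part in membrane order, lysosomal breakdown of engulfed material and chemotactic signalling.

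Depth was nearly equal, with 22393893 to 22856792 estimated counts per library, and levels are given as cpm, the counts of a gene relative to the TMM-scaled size of the library. The summed level of 8 macrophage markers lay between 7303 and 7849 cpm in all 9 libraries. The summed level of 10 markers of T, B, epithelial, fibroblast and endothelial cells was 2.61 to 3.07 cpm in control, 2.46 to 2.92 cpm in VLDL-sized and 2.78 to 3.55 cpm in CHYL-sized libraries. *Cd3g*, *Epcam*, *Cdh1* and *Tek* were at 0 throughout. The highest of the 10 were the fibroblast marker *Pdgfra* (1.33 to 2.43 cpm) and the endothelial marker *Cdh5* (0.502 to 1.22 cpm). In each group the library of replicate 3 differed from the other 2 more than they did from each other. Calls that changed without replicate 3 are therefore stated for the 10 enzymes and the genes named below. In bulk RNA, fewer cells expressing a gene and less RNA of it per cell cannot be told apart.

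The enzymes were present at very different levels. To compare genes, the cpm was divided by the length in kb of the longest transcript, and in control cells *Cers2* was the highest at 124 ± 5.54 cpm per kb (SD, n = 3), followed by *Degs1* at 111 ± 5.42. *Cers5* lay at 50.3 ± 1.68 cpm per kb and *Sptlc1* at 22.6 ± 1.15. *Sgms1* (11.7 ± 0.268) and *Sptlc2* (10.4 ± 0.663) came next, and *Ugcg* (6.85 ± 0.0906), *Cers6* (5.38 ± 0.106) and *Kdsr* (3.86 ± 0.0364) were the lowest of the genes detected. The control ranges of neighbours in this order did not overlap, but the order itself depended on the length used in 2 places: divided by the summed length of all exons, *Degs1* (87.4 cpm per kb) stood above *Cers2* (74.7) and *Sgms1* (4.48) fell below *Ugcg* (5.27).

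**Figure D1:**
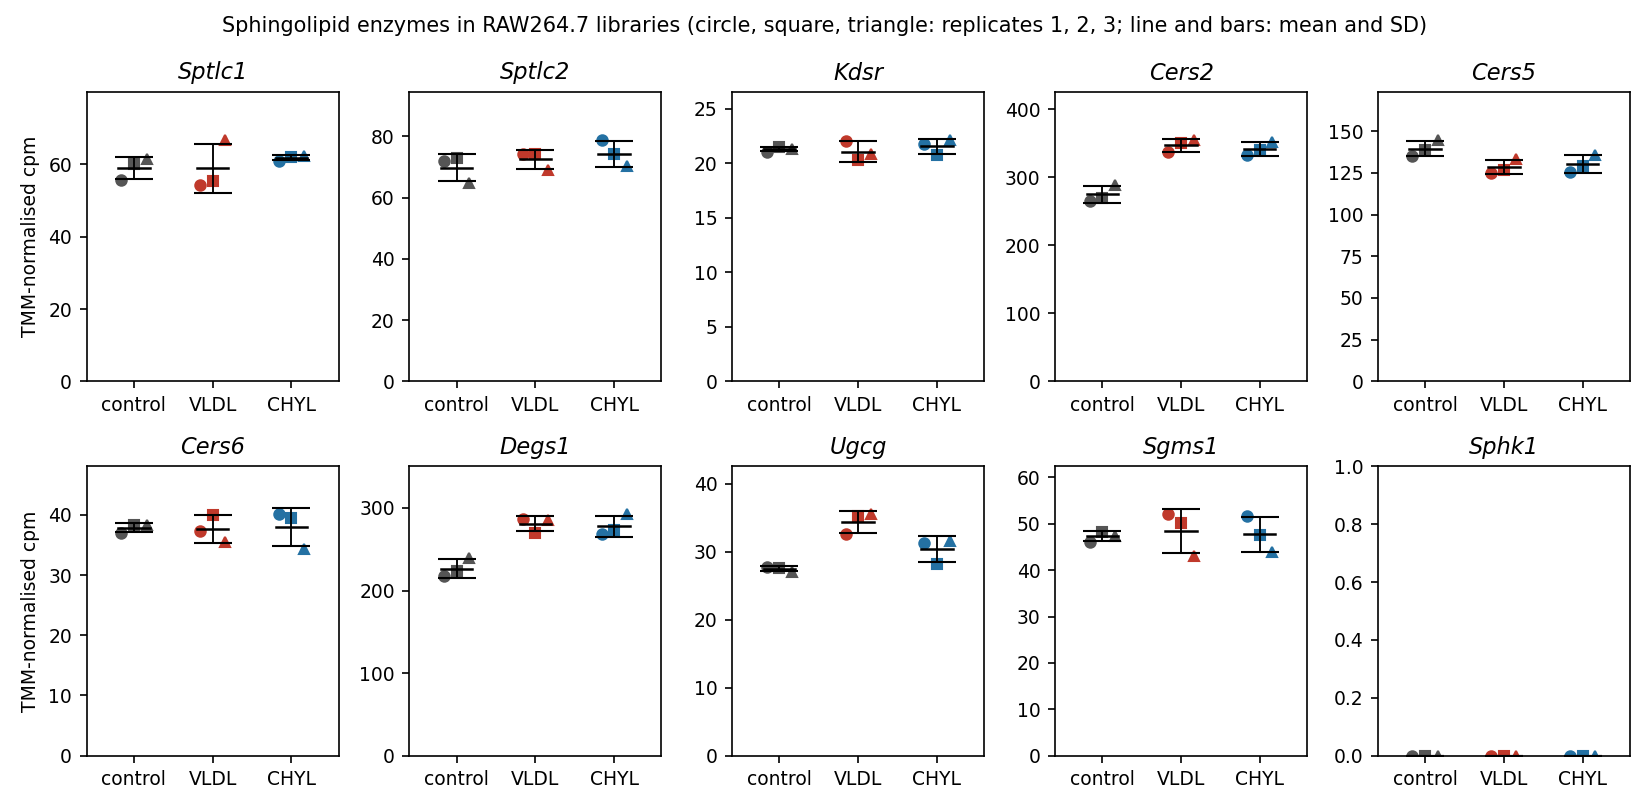
Level of each of the 10 sphingolipid enzymes in the 9 libraries, in TMM-normalised cpm on a linear axis from 0. Each panel is a gene, symbols are libraries (circle, square and triangle for replicates 1, 2 and 3), and the lines show mean and SD of 3 libraries; *Cers2* and *Degs1* lie higher in all 6 particle-treated libraries than in any control, *Ugcg* lies highest in the VLDL-sized libraries, and *Sphk1* is at 0 throughout.

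To see whether VLDL-sized particles changed the expression of these enzymes, treated and control cells were compared. *Cers2*, the ceramide synthase that attaches very long acyl chains, *Degs1*, the desaturase that makes ceramide from dihydroceramide, and *Ugcg*, the synthase of glucosylceramide, rose by 26.3%, 23.9% and 25.1%, while the enzymes of the first steps and the synthase of sphingomyelin were not called. Of the 9 enzymes that could be tested, 3 were called at an adjusted p under 0.05 by limma-voom, or 33.3%, against 35.6% of all 12637 genes tested. All 3 were higher, beside 17.8% of all genes that were called higher. Of the genes called, 49.9% were higher. The libraries of both groups did not overlap for 4 enzymes, against 47.4% of all genes. The median absolute log2 fold change was 0.06 over the 9 enzymes and 0.21 over all genes tested.

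*Cers2* (ENSMUSG00000015714, GRCm38 chr3:95314791-95323599) was at 266, 269.8 and 289 cpm in the control libraries and at 336, 349.9 and 354 cpm in the VLDL-sized libraries. Every treated library lay above every control, and the gap between the groups was wider than the spread within either. The log2 fold change was 0.34 ± 0.05 (SE, adjusted p = 0.00039, limma-voom), larger in size than that of 68.2% of the genes tested. *Cers2* shares 75 bases of exon with *Setdb1* (63.5 to 79.2 cpm) and 378 bases with the antisense RNA 6330562C20Rik (0.728 to 1.41 cpm), and how strand was treated in the counting is not given in the sources used here.

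*Degs1* (ENSMUSG00000038633, chr1:182275772-182282804) was at 217, 224 and 239 cpm in control and at 287, 270.0 and 285 cpm in VLDL-sized libraries. The groups did not overlap, and the lowest treated library exceeded the highest control by more than the range of the controls. The log2 fold change was 0.31 ± 0.05 (adjusted p = 0.0013, limma-voom).

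*Ugcg* (ENSMUSG00000028381, chr4:59189257-59222833) was at 27.7, 27.7 and 27.1 cpm in control, a spread of less than 1 cpm, and at 32.6, 35.2 and 35.5 cpm after VLDL-sized particles. All treated libraries lay above all controls, with a log2 fold change of 0.32 ± 0.07 (adjusted p = 0.0030, limma-voom). In replicate 3 alone, the log2 ratio of the treated to the control library was 0.39, and in a fit of replicates 1 and 2 it was 0.29 (adjusted p = 0.0047, limma-voom).

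*Cers5* (ENSMUSG00000023021, chr15:99734881-99772885), a ceramide synthase that prefers palmitoyl-CoA, was at 135, 139 and 145 cpm in control and at 125, 127 and 133 cpm in VLDL-sized libraries. The ranges did not overlap but nearly touched. The log2 fold change of -0.12 ± 0.05 was not called (adjusted p = 0.084, limma-voom), although its unadjusted p was under 0.05. With the replicate number as a block it was called at the same size (adjusted p = 0.014), and also without the libraries of replicate 3 (adjusted p = 0.046).

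For the entry enzymes the levels of treated and control libraries were interleaved. *Sptlc1* (ENSMUSG00000021468, chr13:53332748-53377397), a subunit of serine palmitoyltransferase, was at 55.6, 60.0 and 61.4 cpm in control and at 54.4, 55.5 and 66.6 cpm after VLDL-sized particles. *Sptlc2* (ENSMUSG00000021036, chr12:87305058-87388355), its catalytic partner, was at 71.9, 72.8 and 64.7 cpm in control and at 74.3, 74.3 and 69.0 cpm in treated cells. *Kdsr* (ENSMUSG00000009905, chr1:106720459-106759727), the reductase of the next step, stayed between 20.2 and 22.1 cpm in these 6 libraries. The groups overlapped for all 3 genes, and the 95% confidence interval of the change ran from -11.6% to 11.7% for *Sptlc1*, from -5.87% to 14.8% for *Sptlc2* and from -10.2% to 9.02% for *Kdsr*.

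Treated and control libraries also overlapped for a further ceramide synthase and for the synthase of sphingomyelin. *Cers6* (ENSMUSG00000027035, chr2:68861441-69114282), another ceramide synthase for palmitoyl chains, was at 37.0, 38.3 and 38.3 cpm in control and at 37.4, 40.0 and 35.6 cpm in treated cells, with an interval of the change from -11.0% to 10.9%. *Sgms1* (ENSMUSG00000040451, chr19:32122727-32389714), the Golgi synthase of sphingomyelin, was at 46.1, 48.3 and 47.4 cpm in control and at 52.0, 50.2 and 43.0 cpm in treated cells. Its libraries of replicates 1 and 2 lay above and that of replicate 3 below the controls, and the interval ran from -9.77% to 15.5%.

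No count was assigned to *Sphk1* (ENSMUSG00000061878, chr11:116530925-116536674), a kinase that makes sphingosine 1-phosphate, in any of the 9 libraries. At this depth a count of 0 allows a level of up to 0.126 to 0.137 cpm per library, a limit that covers counting error only and that holds if the reads of the gene were assigned to it, which was not tested. The antisense gene *Gm29292*, which shares 192 bases of exon with it, was listed at 0 to 0.0455 cpm. The other sphingosine kinase, *Sphk2*, was at 67.7 ± 3.37 cpm in control cells (SD, n = 3).

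**Figure D2:**
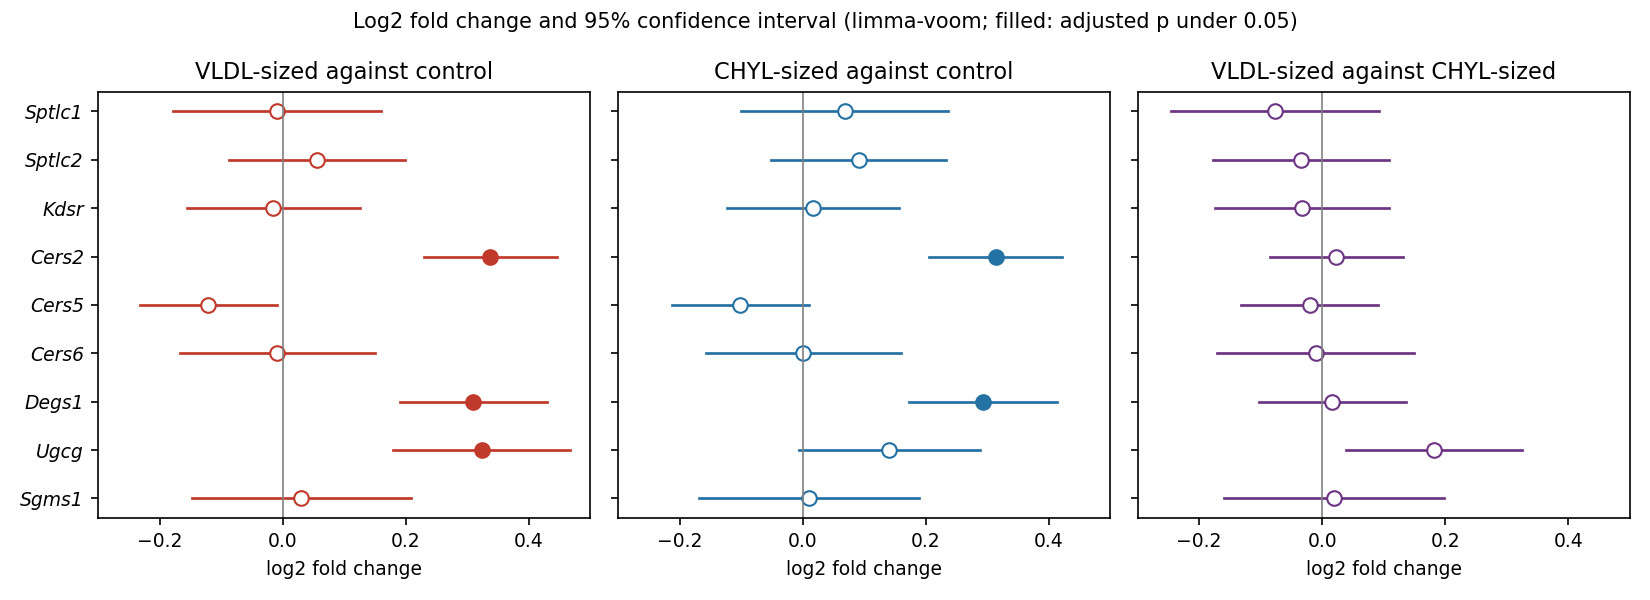
Log2 fold change of the 9 tested enzymes in the 3 comparisons, with the 95% confidence interval from limma-voom as a line and filled symbols at an adjusted p under 0.05. *Cers2*, *Degs1* and *Ugcg* are filled for VLDL-sized particles, *Cers2* and *Degs1* for CHYL-sized particles, and none is filled between the particles, where the interval of *Ugcg* alone excludes 0.

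CHYL-sized particles were compared with the same 3 control libraries, so both comparisons share their controls. *Cers2* and *Degs1* rose, by 24.3% and 22.6%, and the other 7 enzymes tested were not called. These 2 are 22.2% of the 9 enzymes, against 25.7% of all genes called in this comparison and 12.7% called higher. The groups did not overlap for 3 enzymes, against 41.7% of all genes. The median absolute log2 fold change was 0.09 over the 9 enzymes and 0.17 over all genes.

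*Cers2* was at 332, 339.7 and 352 cpm in the CHYL-sized libraries, all above the highest control library (log2 fold change 0.31 ± 0.05, adjusted p = 0.0010, limma-voom). *Degs1* was at 268, 273 and 292 cpm, again with no overlap (log2 fold change 0.29 ± 0.05, adjusted p = 0.0027). *Ugcg* was at 31.3, 28.2 and 31.6 cpm. All 3 values lay above the controls, but replicate 2 did so by less than the range of the controls, and the log2 fold change of 0.14 ± 0.07 was not called (adjusted p = 0.15), with an interval from -0.38% to 22.1%.

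*Cers5* was at 125, 129 and 136 cpm in the CHYL-sized libraries, of which the last overlapped the controls (log2 fold change -0.10 ± 0.05, adjusted p = 0.17, limma-voom). *Sptlc1* was at 61.0, 62.1 and 62.3 cpm and *Sptlc2* at 78.7, 74.1 and 70.2 cpm, and both overlapped the controls. *Kdsr* (21.7, 20.8 and 22.1 cpm), *Cers6* (40.1, 39.5 and 34.4 cpm) and *Sgms1* (51.6, 47.6 and 43.9 cpm) overlapped them too. The intervals of the change for these 6 genes lay between -13.7% and 17.8%.

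Next, the particles were compared with each other. None of the 9 enzymes was called, as was none of the 12637 genes (0%) with limma-voom. At an unadjusted p under 0.05 there were 813 genes, edgeR called 0 genes and DESeq2 called 24. Over all genes 147 were called with the replicate block, 239 with the batch term for replicate 3 and 257 without the libraries of replicate 3, none of them among the 9 enzymes. *Ugcg* was the only one of the 9 enzymes with an unadjusted p under 0.05 and the only one whose groups did not overlap, against 11.3% of all genes. It was 13.5% higher after VLDL-sized than after CHYL-sized particles, with a 95% confidence interval from 2.72% to 25.3% (log2 fold change 0.18 ± 0.06, adjusted p = 0.67, limma-voom). The rise of *Ugcg* called for 1 particle and not for the other is therefore not shown to differ between them at the adjusted threshold. For *Cers2* the interval of the difference between particles ran from -5.73% to 9.54%, and for *Degs1* from -6.91% to 9.87%.

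The promoters of the enzymes were searched for 4 short motifs in the 250 bases before each RefSeq start, on both strands, since *Cers2* and *Degs1* were higher with both particles. All 10 enzymes matched, with 18 windows among 32851 (RefSeq, GRCm38.p6). The E-box CACGTG was present in 4 enzymes, *Cers2*, *Cers6*, *Degs1* and *Sphk1*, and in 6.02% of all windows. The core of the antioxidant response element, TGACNNNGC, was present in *Ugcg* and *Sphk1* and in 10.2% of all windows. An enzyme counts if any of its 1 to 5 windows matches, so a count of enzymes cannot be set against a share of windows. Neither TCACNCCAC, a form of the sterol regulatory element (1.05% of all windows), nor TGATGNAA, the element of ATF4 with C/EBP (3.45%), was found in these windows of the 10 enzymes. A match is a run of letters and not a measured binding site. The matches in *Cers2*, *Degs1*, *Cers6* and *Ugcg* are shown 5′ to 3′ on the strand of the gene, with the match in capitals. They lie 129, 43, 22 and 164 bases before the start at chr3:95315049-95315078 (plus strand), chr1:182282221-182282250 (minus strand), chr2:68861407-68861436 (plus strand) and chr4:59189375-59189404 (plus strand). In the GENCODE annotation the first is intronic, the second and the last overlap an exon and its untranslated part from a start further upstream, and the third lies outside the gene.
Cers2: cgccctgcggggCACGTGccacccgccccg
Degs1: gggagcctcaatCACGTGgtccagtcagct
Cers6: cggccaggctgcCACGTGacaggcgaggcg
Ugcg: tagagcgcgcaGCGCGGTCAgcctgcgctc

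Ceramide synthases differ in the acyl chains they attach. To describe the mix of their RNA, counts per kb of the longest transcript were added over *Cers1* to *Cers6* in each library. The acyl chains of ceramides were not measured. *Cers2* made up 67.3%, 67.1% and 68.0% of this sum in control, 74.3%, 74.8% and 74.4% in VLDL-sized and 73.9%, 73.8% and 73.9% in CHYL-sized libraries. No treated library overlapped a control library. *Cers5* made up 27.4%, 27.6% and 27.2% in control, 22.1%, 21.6% and 22.3% in VLDL-sized and 22.2%, 22.4% and 22.8% in CHYL-sized libraries. *Cers6* held 2.93%, 2.55% and 2.59% of the sum in the 3 groups, and *Cers4*, a further ceramide synthase, 2.18%, 0.929% and 1.02%. The size of each share depends on the length, which was 9475 bases for *Cers4*, 7038 for *Cers6* and 2216 for *Cers2*. Before division by length, *Cers4* and *Cers6* were both at 37.9 cpm in control. With the summed length of all exons in place of the longest transcript, the share of *Cers2* was 61.5% in control, 69.2% after VLDL-sized and 68.5% after CHYL-sized particles.

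**Figure D3:**
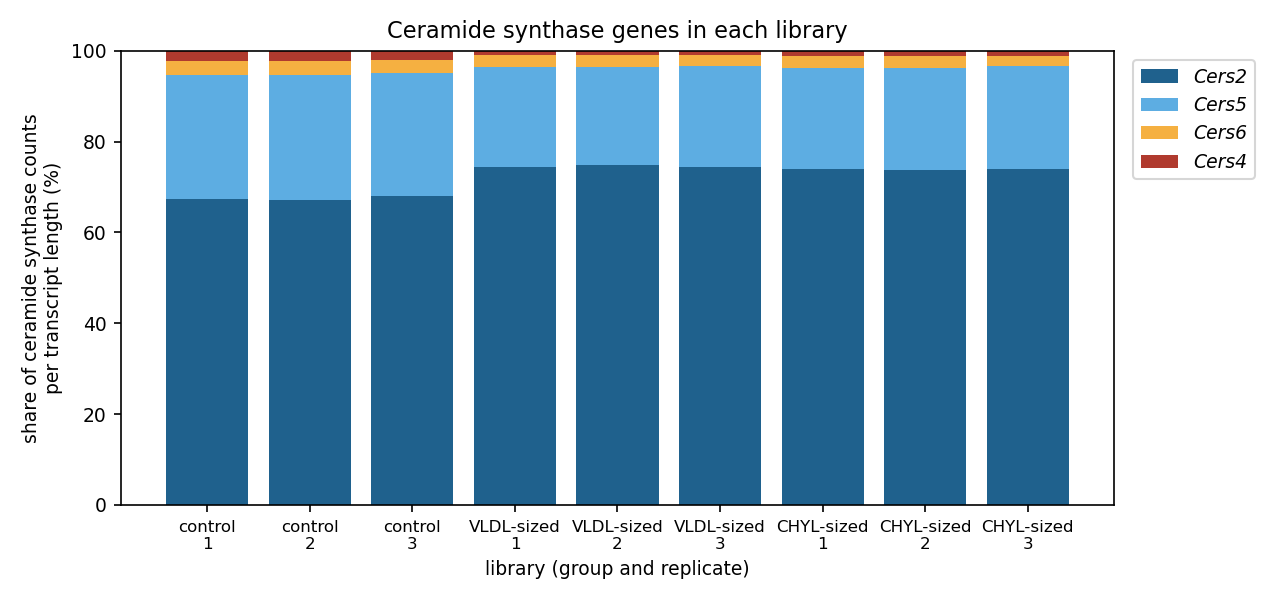
Share of each ceramide synthase gene in the summed counts per transcript length of *Cers1* to *Cers6*, in % for each of the 9 libraries on a linear axis from 0 to 100. *Cers2* takes 67.1% to 68.0% in the control libraries and 73.8% to 74.8% in the treated libraries, while the shares of *Cers5* and *Cers4* are smaller in the treated libraries.

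Ratios of counts within a library do not depend on the scaling between libraries and were therefore also examined. They are given as a description, since 3 libraries against 3 cannot reach an exact permutation p below 0.1. *Cers2* to *Cers5* was 1.96, 1.94 and 2.00 in control, 2.69, 2.76 and 2.67 in VLDL-sized and 2.65, 2.63 and 2.59 in CHYL-sized libraries. *Degs1* to *Kdsr* was 10.3, 10.4 and 11.2 in control, 13.0, 13.3 and 13.7 in VLDL-sized and 12.3, 13.1 and 13.2 in CHYL-sized libraries. For both ratios every treated library lay above every control, as it did for *Cers2* and *Degs1* alone, so this is no separate result. The share of all gene pairs for which it holds was not computed. *Ugcg* to *Sgms1*, the branch to glucosylceramide against that to sphingomyelin, was 0.601, 0.573 and 0.571 in control and 0.626, 0.702 and 0.825 in VLDL-sized libraries. The treated values lay above the controls and spread more widely. In CHYL-sized libraries it was 0.607, 0.593 and 0.719, of which replicate 2 overlapped the controls.

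Other genes of sphingolipid metabolism were then examined from a list of 54, of which 39 passed the filter on low counts. With VLDL-sized particles 21 of the 39 were called, 10 higher and 11 lower (53.8%, against 35.6% of all genes, 17.8% higher and 17.9% lower). With CHYL-sized particles 12 were called, 6 higher and 6 lower (30.8%, against 25.7% of all genes, 12.7% higher and 13.0% lower). With library size only in place of TMM scaling, the calls were 3 higher and 15 lower with VLDL-sized and 3 higher and 11 lower with CHYL-sized particles. The median absolute log2 fold change of the 39 genes was 0.22 and 0.17, beside 0.21 and 0.17 over all genes. Without control replicate 1 there were 13 calls with VLDL-sized particles, where the share over all genes was 27.8%. Without control replicate 3, CHYL-sized replicate 1 or CHYL-sized replicate 2 there were 7 each with CHYL-sized particles, beside 24.7%, 20.2% and 20.6% over all genes. With the replicate block 27 genes were called with VLDL-sized particles, beside 47.9% of all genes. The 6 genes added were *Col4a3bp* (log2 fold change 0.22), *Asah2* (0.25), *Acer2* (1.11), *Smpd4* (-0.13), *Smpdl3b* (-0.23) and *B4galnt1* (-0.16), named after their values were seen. Without the libraries of replicate 3, *Col4a3bp*, *Asah2* and *Smpdl3b* were also called with VLDL-sized particles, and the calls of *Gba2* and *Cptp* ended. With CHYL-sized particles that fit added *Smpd4*, *Col4a3bp*, *Ormdl1*, *Cerk* and *Acer2*. None of these genes changed sign in that fit. The other 15 genes could not be tested. *Sptlc3*, *Sptssb*, *Degs2* and *Gal3st1* were at 0 in all 9 libraries, and *Cers1*, *Cers3*, *Fa2h*, *Acer1*, *Ugt8a*, *Sgpp2*, *Spns2*, *Mfsd2b*, *S1pr3*, *S1pr4* and *S1pr5* had at most 10 counts in any library.

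Around the entry enzyme, 2 of 4 tested partners were lower with VLDL-sized particles: *Sptssa*, a small subunit of serine palmitoyltransferase (log2 fold change -0.23 ± 0.06, adjusted p = 0.016, limma-voom), and *Ormdl1*, an inhibitor of the same enzyme (-0.22 ± 0.07, adjusted p = 0.038). None of the 4 was called with CHYL-sized particles, though *Ormdl1* was without the libraries of replicate 3 (-0.16, adjusted p = 0.047). *Sptssa* was called lower with CHYL-sized particles with library size only (-0.20, adjusted p = 0.038, limma-voom). Over all genes, 17.9% were called lower with VLDL-sized particles, and 25.7% were called in either direction with CHYL-sized particles. *Cers4* was the only further ceramide synthase that could be tested. It was at 38.5, 39.0 and 36.0 cpm in control, 17.6, 18.0 and 19.9 cpm in VLDL-sized and 19.4, 20.1 and 20.7 cpm in CHYL-sized libraries. It fell by 51.1% (adjusted p = 2.1e-06) and by 46.9% (adjusted p = 6.6e-06), and no treated library came near a control. The count of *Cers2* was 6.90, 6.92 and 8.02 times that of *Cers4* in the control libraries, 17.8 to 19.4 times after VLDL-sized and 16.9 to 17.1 times after CHYL-sized particles.

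Among the genes of ceramide transfer and sphingomyelin synthesis, 2 of 4 were called higher with VLDL-sized and 1 of 4 with CHYL-sized particles. Over all genes, 17.8% and 12.7% were called higher. With the replicate block *Col4a3bp* was also called higher with both particles, and *Cptp* with CHYL-sized particles. Under that block 47.9% and 39.2% of all genes were called in either direction. *Samd8*, an enzyme of the endoplasmic reticulum that makes ceramide phosphoethanolamine, was at 29.3, 29.1 and 27.3 cpm in control, 61.6, 69.4 and 70.8 cpm in VLDL-sized and 52.8, 49.2 and 59.0 cpm in CHYL-sized libraries. The 3 groups did not overlap. The log2 fold change was 1.23 ± 0.08 (adjusted p = 2.3e-06, limma-voom) and 0.90 ± 0.08 (adjusted p = 3.6e-05). The difference between the particles was 0.33 ± 0.08 and was not called (adjusted p = 0.51), but it was without the libraries of replicate 3 (0.36, adjusted p = 0.011). *Cptp*, a transfer protein for ceramide 1-phosphate, was called with VLDL-sized particles (0.27 ± 0.07, adjusted p = 0.018), but not without the libraries of replicate 3 (0.19, adjusted p = 0.064) or with library size only (0.17, adjusted p = 0.092).

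Of the genes that break sphingomyelin down, 1 of 5 was called with VLDL-sized particles and 0 of 5 with CHYL-sized particles, and of the ceramidases and ceramide kinase 2 of 5 and 1 of 5, all lower, beside 35.6% and 25.7% of all genes called in either direction. With the replicate block the VLDL-sized comparison also called *Asah2* and *Acer2* higher, both ceramidases, and *Smpd4* and *Smpdl3b* lower, and the CHYL-sized comparison also called *Smpd3* and *Cerk* lower and *Acer2* higher. *Smpd3*, a neutral sphingomyelinase, was the sphingomyelinase called without the block, at the low level of 2.06 ± 0.508 cpm in control and 1.09 ± 0.398 cpm in treated cells (SD, n = 3, adjusted p = 0.030, limma-voom). With CHYL-sized particles it was at 1.14 ± 0.288 cpm and was not called (adjusted p = 0.055). *Acer3*, an alkaline ceramidase, fell with VLDL-sized (log2 fold change -0.24 ± 0.05, adjusted p = 0.0042) and with CHYL-sized particles (-0.18 ± 0.05, adjusted p = 0.023). *Cerk*, the ceramide kinase, was lower with VLDL-sized particles (-0.23 ± 0.08, adjusted p = 0.047), a call made in 13 of 20 alternatives. Without the libraries of replicate 3 it was also called with CHYL-sized particles (-0.15, adjusted p = 0.019).

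Of the 4 tested genes that extend glucosylceramide, the product of *Ugcg*, only *St3gal5*, the synthase of ganglioside GM3, was called without the replicate block. That is 25% with each particle, beside 35.6% and 25.7% of all genes. *St3gal5* was at 564, 565 and 573 cpm in control and lay lower in all VLDL-sized (501, 482 and 447 cpm) and all CHYL-sized libraries (511, 522 and 478 cpm). The log2 fold change was -0.25 ± 0.05 (adjusted p = 0.0042, limma-voom) and -0.17 ± 0.05 (adjusted p = 0.038).

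Breakdown of glycosphingolipids was represented by 10 genes, of which 4 rose and 2 fell with VLDL-sized particles and 3 rose and 1 fell with CHYL-sized particles (60% and 40%, beside 35.6% and 25.7% of all genes). *Gla*, the lysosomal alpha-galactosidase, was at 106, 108 and 118 cpm in control, 180.4, 165 and 182 cpm in VLDL-sized and 158, 163 and 168 cpm in CHYL-sized libraries. Its log2 fold change was 0.67 ± 0.06 (adjusted p = 1.3e-05, limma-voom) and 0.56 ± 0.06 (adjusted p = 7.6e-05). *Hexa*, the alpha subunit of beta-hexosaminidase, was at 514, 531 and 504 cpm in control, 609, 592 and 595 cpm in VLDL-sized and 578, 592 and 559 cpm in CHYL-sized libraries. Neither treated group overlapped the controls, and *Hexa* rose with both particles (0.21 and 0.16, adjusted p = 0.0032 and 0.022). *Psap*, the precursor of the saposins, rose with both particles (0.20 and 0.18, adjusted p = 0.019 and 0.042). With library size only, neither *Hexa* nor *Psap* was called with either particle. *Gba2*, a glucosylceramidase outside the lysosome, was called lower with VLDL-sized particles (-0.33 ± 0.09, adjusted p = 0.015), but not without the libraries of replicate 3 (-0.27, adjusted p = 0.060) or without control replicate 1 (adjusted p = 0.052).

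All 6 tested genes of sphingosine 1-phosphate were called with VLDL-sized particles, 4 higher and 2 lower, and 4 of 6 with CHYL-sized particles, 2 higher and 2 lower, beside 35.6% and 25.7% of all genes. With library size only, *Sgpl1*, *Sphk2* and *Aldh3a2* were no longer called with VLDL-sized particles, nor *Sgpl1* with CHYL-sized particles. *S1pr2*, a receptor, was at 44.0, 46.1 and 48.8 cpm in control, 68.0, 67.6 and 66.5 cpm in VLDL-sized and 66.1, 64.3 and 64.2 cpm in CHYL-sized libraries (log2 fold change 0.54 and 0.49, adjusted p = 2.3e-05 and 8.5e-05, limma-voom). *S1pr1*, the receptor best known for guiding egress of lymphocytes, was at 186, 182 and 227 cpm in control, 139, 139 and 133 cpm in VLDL-sized and 153, 156 and 149 cpm in CHYL-sized libraries. It fell by 0.53 and by 0.37 on the log2 scale (adjusted p = 0.00036 and 0.0048), and control replicate 3 stood above the other controls. *Sgpp1*, the phosphatase that returns sphingosine 1-phosphate to sphingosine, fell by 0.41 and by 0.39 (adjusted p = 0.00032 and 0.00071). *Sgpl1*, the lyase that ends the pathway, rose by 0.28 and by 0.23 (adjusted p = 0.0051 and 0.022). *Sphk2* was called higher with VLDL-sized particles (0.24 ± 0.06, adjusted p = 0.013), and with CHYL-sized particles under the replicate block (0.17, adjusted p = 0.017). *Aldh3a2*, which oxidises the aldehyde that the lyase releases, was at the threshold (0.15 ± 0.05, adjusted p = 0.048) and was called in 9 of 20 alternatives (0.06 to 0.20, adjusted p up to 0.47). *Aldh3a2* lies outside the rule for named genes and was chosen after its values were seen.

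**Figure D4:**
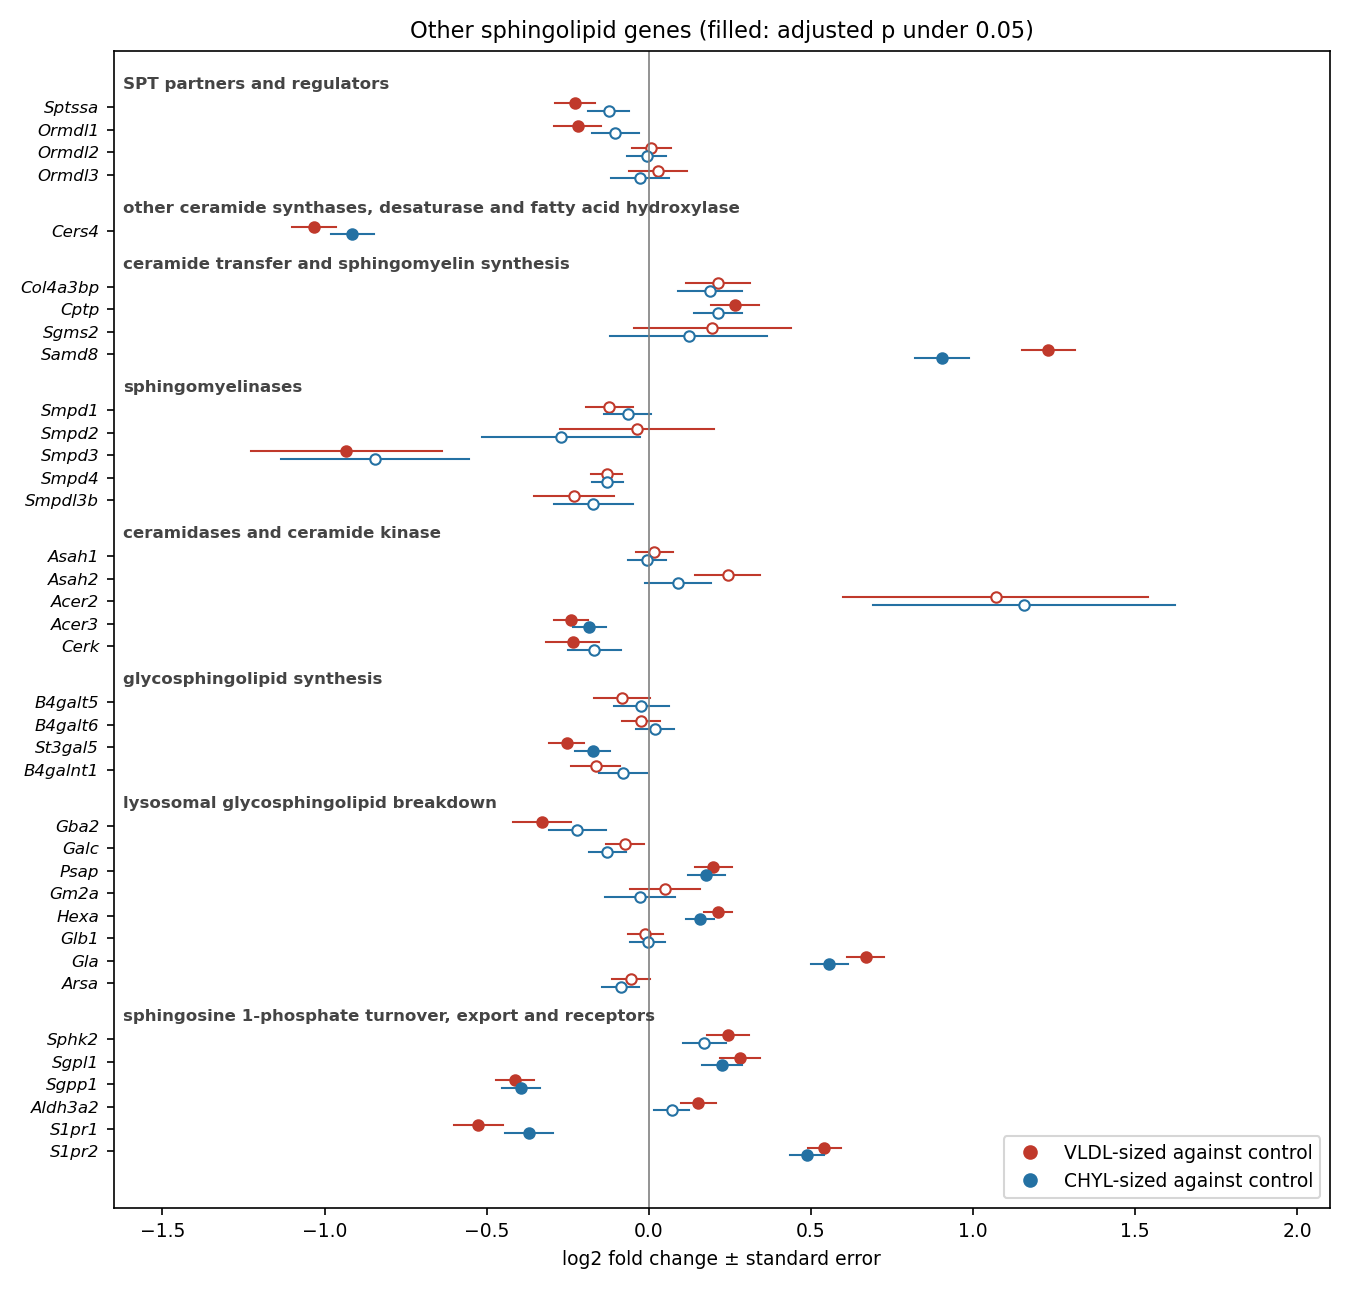
Log2 fold change (x axis, with standard error as a line) of 37 of the 39 tested genes of the sphingolipid list, grouped by role, for VLDL-sized (red) and CHYL-sized (blue) particles against control; filled symbols have an adjusted p under 0.05. *Samd8*, *Gla* and *S1pr2* lie farthest to the right and *Cers4*, *S1pr1* and *Sgpp1* farthest to the left among genes called with both particles.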

How the data were processed

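RNAseq was measured by the authors on the BGISEQ-500 with paired-end reads of total RNA from 9 libraries. Per the labels and the methods, the authors mapped the reads with Salmon 0.14.1 to GENCODE transcripts of GRCm38.p6, summed them to genes with tximport and deposited 1 estimated count per gene and library, which need not be whole. Scaling for transcript length and sequencing depth is described in the methods. Since 58.3% of the deposited values over 10 are whole, the estimated counts were used here as if no such scaling had been applied. Symbols were matched for 54346 of 54432 gene identifiers, and positions and lengths came from a GENCODE release of GRCm38 that is older by 1 release.

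The 12637 genes for which 3 or more of the 9 libraries exceeded 10 counts were fitted with limma 3.58.1 (voom weights, R 4.3.3) after TMM scaling in edgeR 4.0.16, as in the methods, in 1 model of all 9 libraries without a replicate block. Adjusted p-values are Benjamini-Hochberg over these genes, and 0.05 is the threshold. Values per library are cpm of the TMM-scaled library size. Alternatives were edgeR's quasi-likelihood test and DESeq2 1.42.0 on rounded counts, limma-trend (prior count 2), library size only, upper-quartile scaling, no filter, a filter of 50 counts, only the 2 groups compared, a replicate block, a batch term for replicate 3, no replicate 3, and each library left out. The steps were tested on simulated data.

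The enzymes, the list of 54 genes and the alternatives were chosen with earlier results of these data known. Named from the list are the genes called in either comparison with control, up to the 20 with the largest log2 fold change in size. Values of 2 of these genes are not reported here, although the counts include them.

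The groups share replicate numbers. Same-numbered libraries deviated together from their group means across genes in VLDL-sized against control (correlations 0.14, 0.13 and 0.29), all over 0.1, so the blocked value is given there where it changes a call. For CHYL-sized against control (0.12, 0.068 and 0.34) and between the particles (0.029, 0.12 and 0.36) 1 pair stayed under 0.1. Between replicates 1 and 2, libraries of different numbers reached 0.12, 0.16 and 0.18 in these comparisons, in the same order. Pairs of a replicate 3 library with another number were all negative. The numbers therefore do not separate replicates 1 and 2 as pairs, and the blocked fit is an alternative only. Neither the labels nor the methods say that a number marks a shared experiment.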

Additional observations from a re-analysis of the deposited data

How the results depend on the processing

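Each of the 9 enzymes tested and each named gene of the list was followed under 20 alternatives (19 for *Smpd3*), and the 39 tested genes of the list were counted under each. *Cers2* and *Degs1* (both comparisons with control) and *Ugcg* (VLDL-sized) were called with the same direction in all 20, and *Ugcg* with CHYL-sized particles in none (adjusted p 0.071 to 0.54). The enzymes called numbered 3 or 4 with VLDL-sized, 2 or 3 with CHYL-sized particles and 0 between the particles under every alternative. The additional call was *Cers5*. With VLDL-sized particles it was called in 4 of 20 alternatives (adjusted p 0.0029 to 0.21), those being library size only (log2 fold change -0.21), the replicate block, the batch term and the fit without replicate 3. With CHYL-sized particles it was called in 3 of 20 (adjusted p 0.010 to 0.37), library size only, the replicate block and the batch term. The replicate block gave 27 and 21 calls in the list of 54 genes for VLDL-sized and CHYL-sized particles, where the share called over all genes was 47.9% and 39.2%. The batch term gave 22 for CHYL-sized particles (40.7% over all genes). The model without either gave 21 and 12. Between the particles the replicate block, the batch term and the fit without replicate 3 gave 1 call in the list, *Samd8*. The block added no other call among the 10 enzymes. Leaving out 1 library gave 13 to 21 calls in the list with VLDL-sized and 7 to 13 with CHYL-sized particles.

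With library size only, 31.3% of the genes called with VLDL-sized and 29.8% of those called with CHYL-sized particles were higher, beside 49.9% and 49.6% after TMM scaling. Among the 10 enzymes and the named genes, signs that turned were of values not called. With library size only these were *Sptlc2* (-0.04) and *Sgms1* (-0.06) for VLDL-sized and *Sptlc1* (-0.01), *Kdsr* (-0.06), *Sgms1* (-0.07) and *Aldh3a2* (-0.01) for CHYL-sized particles. Without replicate 3, *Cers6* turned to 0.04 for VLDL-sized particles. The cause was not tested. Of the 39 list genes, 4 turned sign with VLDL-sized and 2 with CHYL-sized particles with library size only, none of them called, and without replicate 3 it was 5 and 1, also none called. Library size only ended 7 and 3 calls and added 4 and 5. Of the calls with VLDL-sized particles, *Cptp* was made in 14 of 20 alternatives, *Ormdl1* in 13 and *Smpd3* in 14 of 19. Over the fits that each left out 1 library, values of both signs were found with VLDL-sized particles for *Sptlc1* (-0.10 to 0.04), *Kdsr* (-0.05 to 0.01), *Cers6* (-0.05 to 0.03) and *Sgms1* (-0.02 to 0.11). With CHYL-sized particles this held for *Sgms1* (-0.05 to 0.07) and for *Cers6*, which was at 0.00 in the model of all 9 libraries. Over all 20 alternatives *Cers6* ran from -0.08 to 0.08 with CHYL-sized particles. Between the particles, leaving out 1 library gave both signs for *Sptlc2* (-0.08 to 0.01), *Cers5* (-0.05 to 0.01), *Cers6* (-0.08 to 0.03), *Degs1* (-0.01 to 0.05) and *Sgms1* (-0.04 to 0.10).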
